A study of Mus musculus with 3 samples.

Results

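The histone cluster genes are the genes of the 4 genomic histone clusters, whose symbols begin with Hist1h, Hist2h, Hist3h or Hist4h. Of 67 such rows among 31053 gene rows, the 53 with a UMI (a counted transcript molecule) in at least 10 of the 3470 kept cells were taken. They comprise 5 linker histone (H1), 13 H2A, 16 H2B, 10 H3 and 9 H4 genes, of which 41 belong to the Hist1 cluster, 9 to Hist2, 2 to Hist3 and 1 to Hist4. At the threshold, Hist1h2bf was found in 10 cells and Hist2h3c2 in 11, while Hist1h3b, in 9 cells, and Hist1h4f, in 7, fell outside it. Hist1h2bq, Hist1h1t, Hist1h2ba and Hist1h2aa had no UMI in any kept cell.

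The cells were lineage-negative, Sca1-positive, Kit-positive (LSK) bone marrow cells, the compartment that holds blood stem cells and multipotent progenitors, sorted from 2 wild-type mice and 2 that the labels call Helios-deficient. Helios is a zinc finger transcription factor encoded by Ikzf2, and the study asked what it does across this mixed population. The 4 mice were marked with a hashtag each and shared 1 droplet run of 3 prime single-cell RNA sequencing with antibody tags for CD48, CD150, CD41 and CD135 (Flt3). The labels give neither the allele that removes Helios nor the age or sex of the mice. The 2 mice labelled Helios-deficient gave 557 and 824 cells and the 2 wild-type mice 1175 and 914. Ikzf2 stood at 73.6 and 82.7 CPM (counts per 1000000 UMIs) in the 2 mutants, against 70.6 and 67.7 CPM in the controls. Tags from the 3 prime end need not touch a deleted part, so this level does not check the labels, and every direction by genotype rests on them. The stem and progenitor markers Kit (82.5 to 94.8 CPM), Ly6a, which encodes Sca1 (128 to 157 CPM), and Cd34 (413 to 491 CPM) were present in every mouse.

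Histones package DNA into nucleosomes: H2A, H2B, H3 and H4 form the core and H1 binds the linker DNA between cores. Genes of the clusters are known mainly as replication-dependent genes, switched on in S phase when new DNA must be packaged. Their messenger RNAs classically end in a stem-loop bound by the protein Slbp in place of a poly(A) tail, whereas histone variants made throughout the cycle have polyadenylated messages. The present libraries were primed on poly(A), per the labels, so stem-loop messages are a poor substrate and the values refer to the captured transcripts only. Polyadenylated transcripts of some cluster genes are known from differentiating and resting cells. Whether captured molecules carried a tail or were primed internally was not tested.

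The 53 genes gave 12889 UMIs, or 0.0393% of all UMIs, at 362 and 397 CPM in the mice labelled Helios-deficient and 400.3 and 399.6 CPM in the wild-type mice. The 10 most abundant genes held 75.0% of these UMIs, and 35 of the 53 had fewer than 100 UMIs each. By count of 3 prime tags, which does not grow with transcript length, the order was Hist1h2bc (2887 UMIs), Hist1h4i (1172), Hist1h2ap (1066), Hist3h2a (1027), Hist1h1c (973), Hist1h2ac (632), Hist1h1e (628), Hist1h1b (563), Hist1h2ae (411) and Hist1h3d (309). Hist1h2bc, an H2B gene, held 22.4% of the UMIs. H3 genes together held only 4.54%, against 30.5% for H2B, 30.1% for H2A, 19.99% for H1 and 14.9% for H4. In RefSeq (GRCm38.p6), 52 of the 53 matched a single gene: 40 on chromosome 13, 9 on chromosome 3, 2 on chromosome 11 and 1 on chromosome 6. Hist1h2ap matched more than 1 gene, so its reads may be shared with a near-identical copy and no position is given for it. More generally, the coding sequences of the cluster are close to each other, and how multiply mapping reads were treated is not given in the sources used here. The median annotated span was 492.5 bp, and 5 genes, among them Hist1h2bc (8282 bp) and Hist2h2be (2667 bp), spanned more than 1000 bp.

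Cells were first separated by phase. Each cell was scored with 39 S and 51 G2M genes, none of them a cluster histone, and called S or G2M by its higher positive score or G1 where both were at or below 0. This gave 1954 G1, 1157 S and 359 G2M cells, with medians of 6454.5, 11022 and 15007 UMIs. "G1" here includes resting cells. In 321 cells the higher score lay within 0.05 of the cut, so the classes are ranges and not sharp states. CPM relates a gene to all UMIs of the same cells, so a fold change is relative to total captured RNA, and the amount per cell was not measured.

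The most abundant cluster gene was high outside S phase. Hist1h2bc stood in G1 cells at 174, 146, 127 and 157 CPM, in S cells at 21.4, 17.3, 25.5 and 27.2 CPM and in G2M cells at 103, 118, 88.6 and 123 CPM (in each list, the 2 mice labelled Helios-deficient and then the 2 wild-type mice). The lowest G1 value was more than 4 times the highest S value, and G2M lay between them in every mouse. The fitted log2 change from G1 to S was -2.60 ± 0.09 (SE, n = 4 mice as blocks, edgeR quasi-likelihood test, adjusted p = 2.19e-23), and that from G1 to G2M -0.40 ± 0.07 (edgeR adjusted p = 8.09e-06). The G2M decrease was not called when phases were assigned on cells thinned to 4000 UMIs (log2 change -0.07, edgeR adjusted p = 0.459).

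Hist1h1c, a linker histone gene, had the same order. Its levels were 38.7, 52.5, 44.5 and 38.2 CPM in G1, 8.26, 13.4, 12.9 and 14.3 CPM in S, and 25.4, 50.6, 42.9 and 28.5 CPM in G2M. The G1 and S values did not overlap, whereas those of G1 and G2M did. The S change was -1.71 ± 0.12 on the log2 scale (SE, edgeR adjusted p = 2.90e-17), and the G2M change, at -0.16, was not called. Hist3h2a, an H2A gene of the small cluster on chromosome 11, went from 54.9, 48.3, 45.8 and 52.9 CPM in G1 to 12.0, 14.2, 11.4 and 15.2 CPM in S and 33.2, 30.0, 40.1 and 26.2 CPM in G2M. Its 3 phase classes did not overlap among mice (S against G1 log2 change -1.83 ± 0.11, edgeR adjusted p = 1.75e-19).

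A second set rose from G1 through S to G2M. Hist1h2ap, an H2A gene, was at 4.41, 2.23, 3.62 and 4.81 CPM in G1, 21.0, 25.98, 30.3 and 25.5 CPM in S, and 113, 137, 127 and 91.3 CPM in G2M. Hist1h1b, a linker histone gene, was at 2.45, 1.27, 1.49 and 1.42 CPM in G1, 11.3, 17.0, 16.9 and 17.7 CPM in S, and 46.9, 49.4, 73.8 and 60.6 CPM in G2M. In both genes the 3 classes were fully separated among mice. From G1 to S, Hist1h1b rose by 3.43 ± 0.25 and Hist1h2ap by 2.91 ± 0.18 on the log2 scale (SE, edgeR adjusted p = 1.91e-16 and 9.82e-19). From G1 to G2M the log2 changes were 5.27 ± 0.21 and 5.01 ± 0.16 (edgeR adjusted p = 5.03e-30 and 3.97e-34).

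Hist1h4i, the second most abundant gene and an H4 gene, moved less between G1 and S. It stood at 17.1, 21.3, 18.9 and 16.1 CPM in G1, 22.2, 30.5, 25.7 and 26.03 CPM in S and 74.2, 91.7, 129 and 106 CPM in G2M. The S values all exceeded the G1 values, by 0.60 ± 0.12 on the log2 scale (SE, edgeR adjusted p = 2.79e-05), and the G2M values were far above both (2.53 ± 0.12, edgeR adjusted p = 3.51e-26). The plot of levels by phase class shows these opposite shapes side by side.

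**Figure D1:**
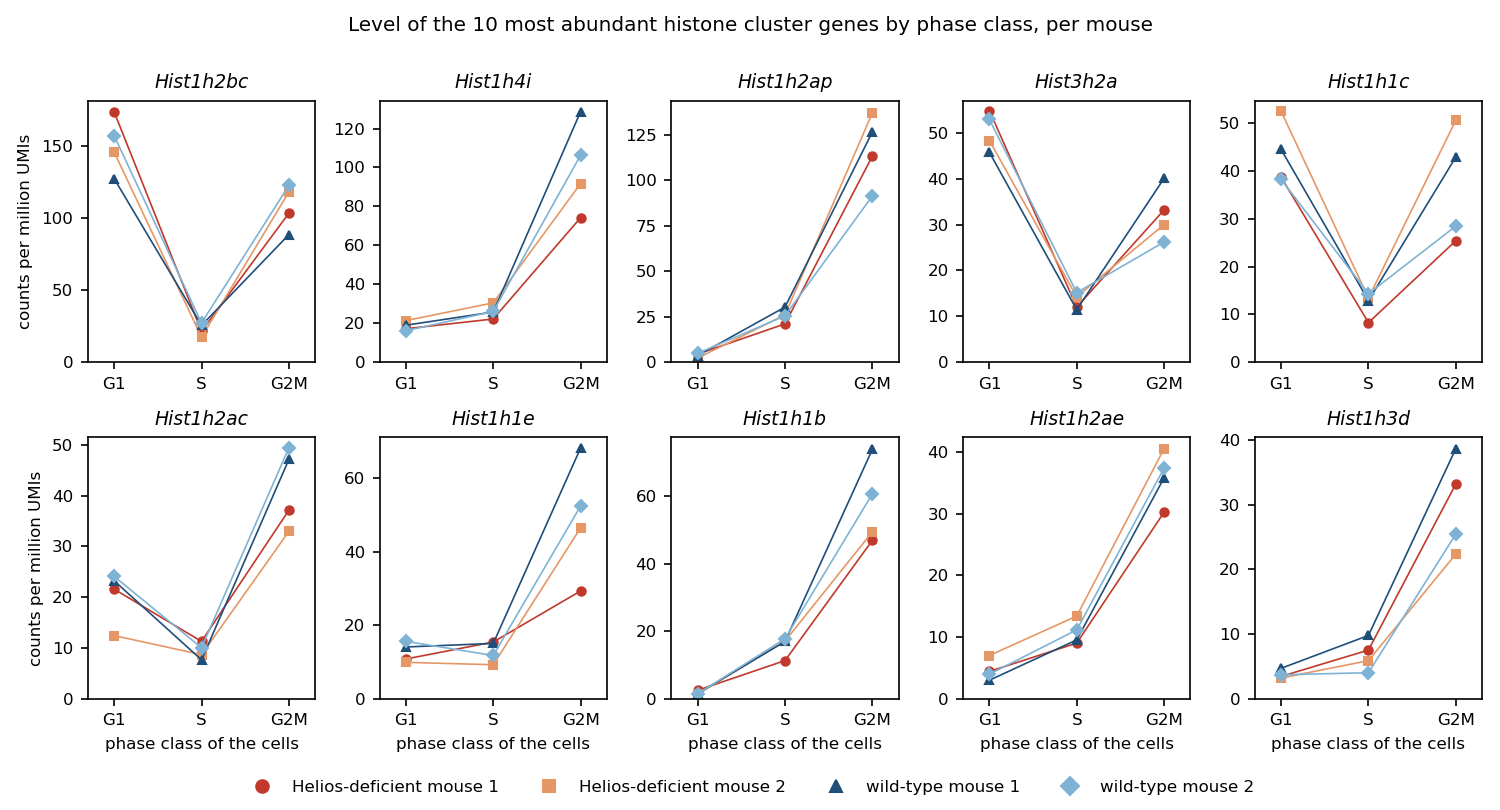
CPM (vertical axes, from 0) of the 10 most abundant histone cluster genes in G1, S and G2M cells (horizontal axes), with 1 line and symbol per mouse. Hist1h2bc, Hist3h2a and Hist1h1c dip in S in all 4 mice, whereas Hist1h2ap and Hist1h1b climb from G1 (at most 4.81 CPM) to G2M (at least 46.9 CPM).

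Fitted on the genes that pass edgeR's default filter, 7 cluster genes were higher in S than in G1 and 7 lower, among 17 tested. Across all 10404 genes tested, 26.5% were higher and 25.3% lower. Named S-following by this call alone were Hist1h1b, Hist1h2ap, Hist1h2ak (log2 change 2.50 ± 0.40), Hist1h2ae (1.37 ± 0.22), Hist2h2ac (1.34 ± 0.34), Hist1h3d (0.92 ± 0.25) and Hist1h4i. The genes lower in S were Hist1h2bc, Hist3h2ba (-2.15 ± 0.22), Hist3h2a, Hist1h1c, Hist1h2ac (-1.06 ± 0.16), Hist4h4 (-0.86 ± 0.24) and Hist2h2be (-0.69 ± 0.28). The ± values are SEs, and all 14 calls are edgeR adjusted p-values of at most 0.0326. Of the S-following genes 4 encode H2A, and of those lower in S 3 encode H2B and 2 H2A. Hist1h1e, a linker histone gene of similar abundance, differed by 0.08 and was not called.

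The filter removed 36 of the 53, mostly genes seen in few cells and therefore only where they are high, so the same model was also run without it. All 53 were then tested: 15 were higher in S, 6 lower and 32 not called, beside 17.7% and 16.4% of all genes tested this way. The median log2 change of the 53 was 0.80, and 0.66 with genes at 0 UMIs in G1 set to their lower bound, against -0.05 for all genes. Hist1h2af, an H2A gene, had no UMI in G1, 23 in S and 38 in G2M. Against a floor of 3 counts over all G1 cells it was at least 7.38-fold higher in S and at least 31.0-fold higher in G2M. Of the H2B genes, Hist1h2bb (log2 change 1.75), Hist1h2bm (2.02) and Hist1h2bj (2.42) were among the 15, all of low abundance. Hist1h3a was the single gene whose pooled level was highest in S, at 2.296 CPM against 0.671 CPM in G1 and 2.19 CPM in G2M. Its S and G2M levels did not differ beyond their spread, since G2M was the higher in 2 of the 4 mice (log2 change G2M against S -0.09 ± 0.54, edgeR adjusted p = 0.939 without the filter). Among the 53, 20 were higher in S than in G1 in all 4 mice and 8 were lower in all 4. The shares of all genes with such agreement were not computed, so these counts only describe the 53.

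In G2M the balance was different. Of 19 tested, 13 were higher in G2M than in G1 and 2 lower, beside 21.5% and 20.8% of 9373 genes. Without the filter 34 of the 53 were higher, 2 lower and 17 not called, beside 13.3% and 13.2% of all genes, and the median log2 change was 2.73 against -0.13. Some of the 53 met the rule of 10 cells only through cells outside G1, such as Hist1h3g (0 UMIs in G1, 3 in S and 20 in G2M). Leaving out the filter does not remove that selection, and the shares of all genes are not a matched background. Among the 19 genes that passed the filter, the largest changes after Hist1h1b and Hist1h2ap were those of Hist1h2ak (4.92 ± 0.31), Hist1h2bb, an H2B gene (3.82 ± 0.50), Hist1h1a, a linker histone gene (3.57 ± 0.35), and Hist2h2ac (3.28 ± 0.31; SE, edgeR adjusted p of at most 2.89e-09). Without the filter, 4 genes with no UMI in G1 (Hist1h2af, Hist1h3g, Hist1h2an and Hist1h2bk, with 13 to 38 UMIs in G2M) had fitted values above that of Hist1h1b, which depend on the prior count. Only Hist1h2bc and Hist3h2a were lower (Hist3h2a log2 change -0.57 ± 0.13, edgeR adjusted p = 0.000320). Hist1h2ac, lower in S, was higher in G2M: its levels were 21.6, 12.4, 23.2 and 24.1 CPM in G1, 11.3, 8.66, 7.63 and 10.0 CPM in S and 37.1, 32.9, 47.1 and 49.4 CPM in G2M. Hist1h1e likewise rose by 2.06 ± 0.15 on the log2 scale (edgeR adjusted p = 2.21e-18).

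G2M was then set against S, a comparison added after these levels had been seen. Without the filter, 38 of the 53 were higher in G2M, none lower and 15 not called, beside 7.63% of all genes higher and 10.1% lower; of the 15, 5 had an unadjusted p under 0.05. As above, the shares of all genes without the filter are not a matched background. With the filter, 13.3% of 9452 genes were higher and 15.4% lower, and all 21 cluster genes tested were higher. Genes of both sets rose: Hist1h2bc by 2.23 ± 0.11 and Hist1h2ap by 2.16 ± 0.10 on the log2 scale (SE, edgeR adjusted p = 6.85e-21 and 4.99e-24). The finer score classes below show that these 2 genes were highest in different cells of the G2M class. By pooled level, 48 of the 53 were highest in G2M, 4 in G1 (Hist1h2bc, Hist3h2a, Hist1h1c and Hist2h3c2, the last with 11 UMIs) and 1 in S. These 4 G1-high genes had the order G1, G2M, S. How all genes divide by their highest class was not computed, so these counts only describe the 53. Within the fit the members share libraries, so they are not independent of each other.

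**Figure D2:**
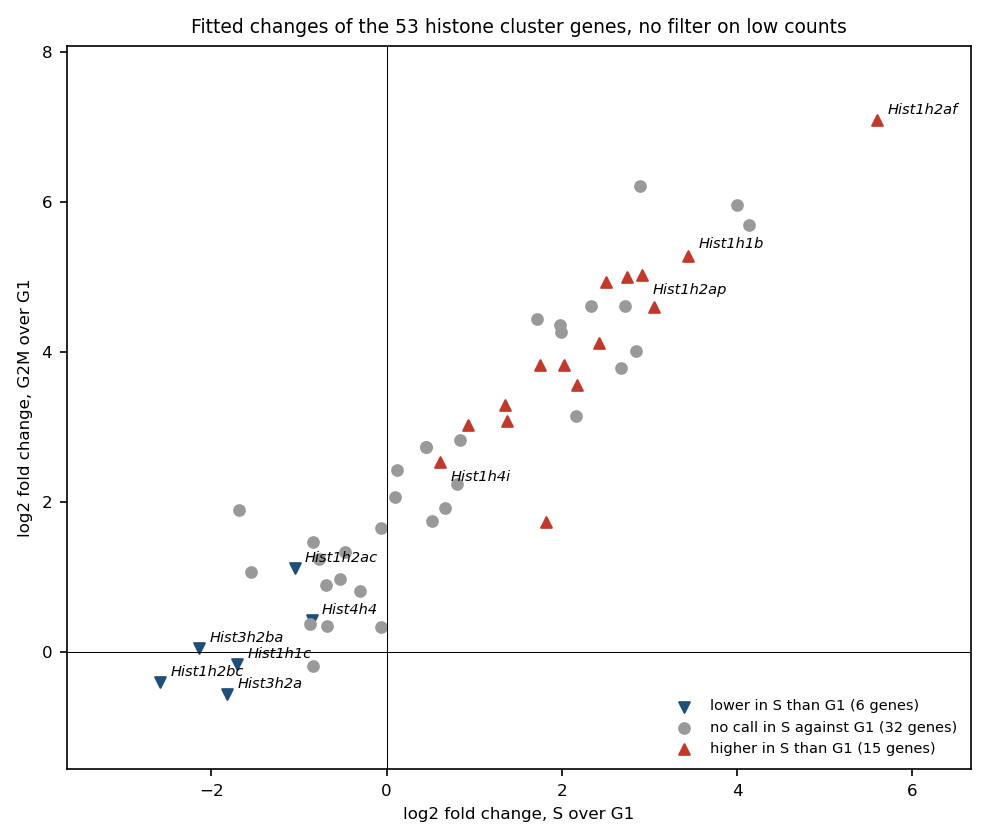
Fitted log2 fold changes of all 53 genes without a filter on low counts, S over G1 (horizontal) against G2M over G1 (vertical), 1 point per gene, shaped and coloured by the call in S against G1 (6 lower, 32 not called, 15 higher). Both axes share the G1 cells. Hist1h2bc and Hist3h2a lie below 0 on both axes, and values of genes with no UMI in G1, such as Hist1h2af, depend on the prior count.

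Summed by protein, the family totals did not fall in parallel in S. H2B genes together went from 206, 168, 156 and 185 CPM in G1 to 39.0, 31.6, 50.0 and 45.8 CPM in S and 163, 191, 181 and 191 CPM in G2M. H3 genes together went from 5.39, 6.997, 9.79 and 8.49 CPM to 12.4, 13.1, 16.2 and 12.9 CPM and then to 51.7, 40.6, 69.6 and 46.4 CPM. Hist1h2bc alone gave 84.4% of the H2B UMIs in G1. The other 15 H2B genes together stood at 32.3, 21.9, 28.5 and 27.2 CPM in G1 and 17.6, 14.2, 24.5 and 18.6 CPM in S, which overlap, and at 59.6, 72.9, 92.8 and 68.1 CPM in G2M, and single H2B genes (Hist1h2bb, Hist1h2bm and Hist1h2bj) were called higher in S. The H2B totals of G1 and S, and the H3 totals of all 3 classes, did not overlap. H2A totals in G1 (74.1 to 92.0 CPM) and S (69.1 to 79.3 CPM) overlapped, as did H4 totals (30.4 to 45.6 and 35.3 to 42.7 CPM). These sums were not tested.

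The S class pools cells early and late in replication, so it was divided by whether the G2M score was also above 0. In the 743 cells with only the S score above 0, Hist1h2ap was nearly absent, at 0, 0.985, 0.411 and 2.52 CPM, below its level in G1 in each mouse. It stood at 49.0, 58.7, 71.5 and 55.7 CPM in the 414 cells with both scores above 0 and S the higher, and at 170, 202, 187 and 137 CPM in the 187 cells with both above 0 and G2M the higher. In the 172 cells with only the G2M score above 0 it was again lower, at 62.6, 26.9, 53.1 and 29.8 CPM. Hist1h1b had the same course, with pooled levels of 2.13, 34.7, 77.8 and 32.3 CPM over these 4 classes and 1.57 CPM in G1. In every mouse both genes were highest where both scores were positive and G2M the higher. Hist1h2bc took another course. With only the S score above 0 it was, like Hist1h2ap, below its G1 level in each mouse, at 22.4, 20.7, 33.3 and 32.7 CPM. Its level was 20.1, 12.9, 14.8 and 19.9 CPM in cells with both scores positive and S the higher. It was still low, at 24.9, 15.9, 12.8 and 64.0 CPM, where both were positive and G2M the higher. In cells with only the G2M score positive it stood at 173, 291, 181 and 202 CPM, against 174, 146, 127 and 157 CPM in G1. For this gene the G2M class thus pooled cells well below the G1 level with cells near or above it. Hist1h1c (pooled 11.04, 14.4, 26.2 and 54.5 CPM over the 4 classes) and Hist3h2a (13.3, 13.1, 23.6 and 43.6 CPM) also had their highest level outside G1 in the class with G2M alone. Hist1h4i was lowest with the S score alone (pooled 11.7 CPM, against 18.5 CPM in G1) and stood at 111 and 89.7 CPM in the 2 classes with the higher G2M score. Hist1h2ak, Hist1h2ae and Hist1h3d were also lower with the S score alone than in G1 (pooled 0.376, 2.76 and 1.63 CPM against 0.894, 4.40 and 3.88 CPM). The rise of these genes and of Hist1h2ap in the S class lay in cells whose G2M score was also above 0. By pooled level, Hist1h1b and Hist2h2ac (2.63 against 2.01 CPM) were not lower with the S score alone. Hist1h1b was lower there than in G1 in the mice labelled Helios-deficient (1.97 and 0 CPM against 2.45 and 1.27 CPM). It was higher in the wild-type mice (1.64 and 5.03 CPM against 1.49 and 1.42 CPM). Hist1h2ak, with 3 UMIs there and 12 in G1, was lower in all but mouse 1 labelled Helios-deficient (0.658 against 0 CPM). Median UMIs per cell were 9942, 13332.5, 16069 and 13402 over the 4 classes, and no test was made between them.

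**Figure D3:**
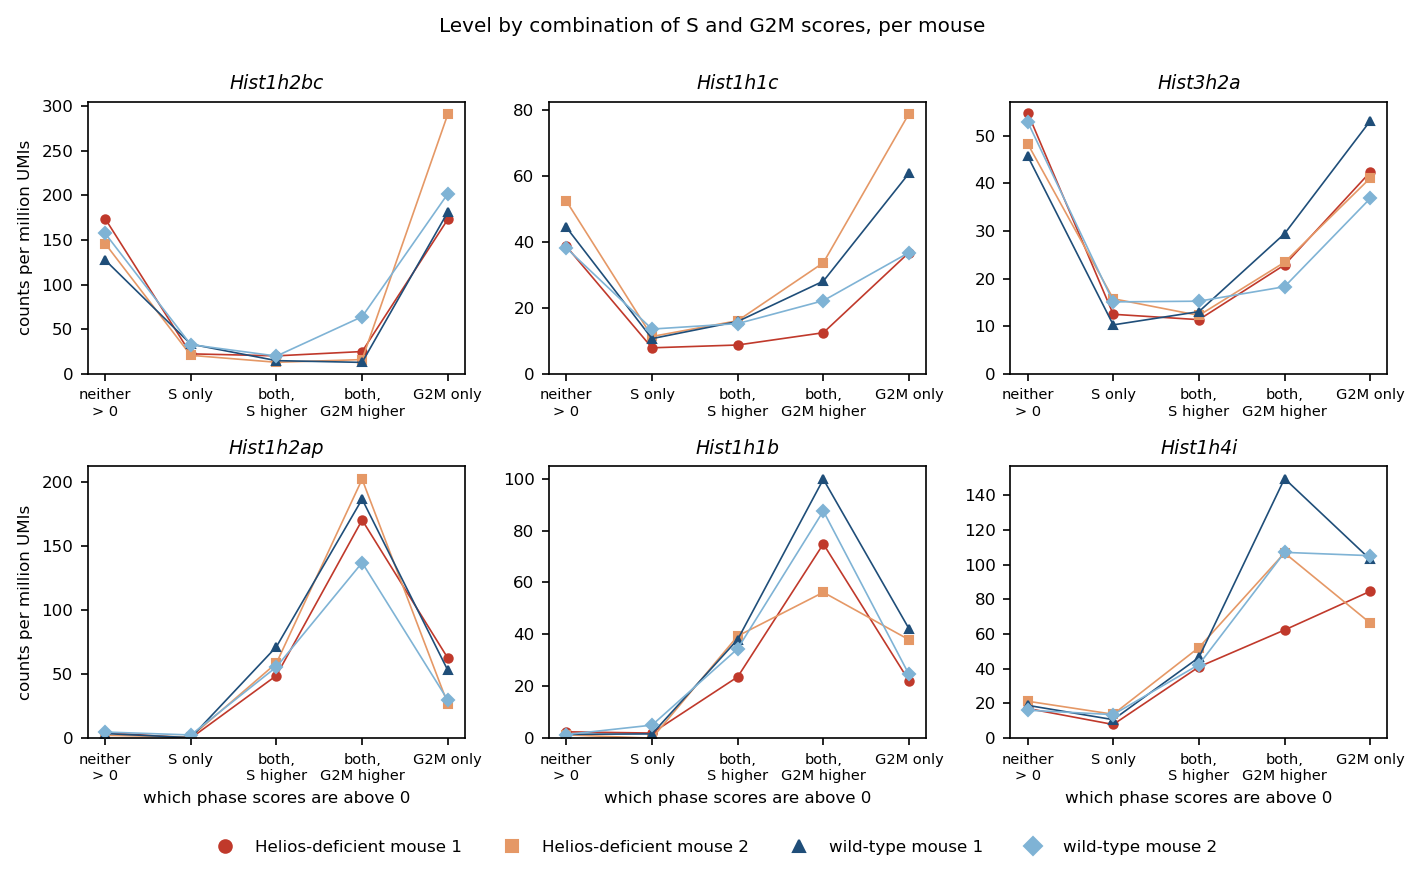
CPM (vertical axes, from 0) of 6 genes in the 5 combinations of S and G2M scores (horizontal axes), with 1 line and symbol per mouse. Hist1h2bc, Hist1h1c and Hist3h2a have their 2 lowest pooled levels in the classes where the S score is the higher, and Hist1h2ap and Hist1h1b peak where both scores are positive and G2M is the higher (pooled 177 and 77.8 CPM).

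Depth differed by phase, so shares of cells were also compared with each cell thinned to 4000 UMIs, leaving out 72 G1, 8 S and 2 G2M cells that were shallower. Hist1h2bc was found in 19.2% of thinned G1 cells, 4.61% of S cells and 19.6% of G2M cells (25.2%, 10.3% and 35.7% before thinning). In S the 4 mice gave 7.84%, 3.25%, 3.53% and 5%, all below the G1 range of 17.0% to 21.6%. Hist1h2ap was found in 1.28%, 5.92% and 31.1% of thinned G1, S and G2M cells (2.35%, 12.4% and 60.7% before). No cell class here is known to lack these genes, so the share that free RNA gives was not measured. A lower share in S for one gene and a higher one for another came from the same thinned cells.

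The upstream sequence of both sets was read from RefSeq. Promoter windows existed for 47 of the 53, not for Hist1h2bc, and the 250 bases before the annotated start were searched on both strands for ATTTGCAT (the octamer bound by Oct1, encoded by Pou2f1), CCAAT (bound by NF-Y), TATAA (the core of the TATA box) and AAACACA (a box known from H1 genes). The octamer was in 21.3% of the 47 windows and 1.60% of all 32851 windows, CCAAT in 83.0% and 33.8%, TATAA in 63.8% and 22.8%, and AAACACA in 12.8% and 6.25%. AAACACA was in 4 of the 5 H1 windows and 2 of the 42 others, and the octamer in 0 of the 5 H1 windows. Of 6 windows of S-following genes and 5 of genes lower in S, the octamer was in 2 and 2, CCAAT in 5 and 4, TATAA in 5 and 4, and AAACACA in 1 and 1. Shown here is a pair of H1 genes that moved in opposite directions, an H2A and an H4 gene for comparison, and the 239 bases between the annotated spans of Hist1h2ac and Hist1h2bc, the only sequence at hand beside Hist1h2bc. Each run goes 5′ to 3′ on the strand of the gene and ends at the base before its start; capitals mark the motif matches on either strand, and overlapping TATAA matches on both strands give one run of capitals.
Hist1h1b: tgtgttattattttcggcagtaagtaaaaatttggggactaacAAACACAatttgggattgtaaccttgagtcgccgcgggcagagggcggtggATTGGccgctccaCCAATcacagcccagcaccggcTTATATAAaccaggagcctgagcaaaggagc
Hist1h1c: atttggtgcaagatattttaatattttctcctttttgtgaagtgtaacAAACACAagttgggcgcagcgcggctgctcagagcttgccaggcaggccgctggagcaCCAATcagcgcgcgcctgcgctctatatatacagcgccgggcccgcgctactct
Hist3h2a: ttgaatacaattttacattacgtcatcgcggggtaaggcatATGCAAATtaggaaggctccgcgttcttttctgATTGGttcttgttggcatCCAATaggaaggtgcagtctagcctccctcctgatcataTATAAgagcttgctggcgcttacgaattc
Hist1h4i: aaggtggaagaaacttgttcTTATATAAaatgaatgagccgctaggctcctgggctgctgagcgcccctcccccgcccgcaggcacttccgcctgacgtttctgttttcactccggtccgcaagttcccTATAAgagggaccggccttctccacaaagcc
Hist1h2ac: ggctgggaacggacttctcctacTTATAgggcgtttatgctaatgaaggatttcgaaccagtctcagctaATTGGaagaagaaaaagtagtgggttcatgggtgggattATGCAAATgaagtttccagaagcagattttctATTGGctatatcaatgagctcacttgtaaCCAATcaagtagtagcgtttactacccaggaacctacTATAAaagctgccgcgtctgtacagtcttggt
They lie on GRCm38.p6 at chr13:21780626-21780785 (minus strand, Hist1h1b), chr13:23738647-23738806 (plus, Hist1h1c), chr11:58954525-58954684 (plus, Hist3h2a), chr13:22041363-22041522 (minus, Hist1h4i) and chr13:23683960-23684198 (minus, Hist1h2ac). Hist1h1b and Hist1h1c both hold the H1 box, with its first base at -117 and -112 relative to the start, and a forward CCAAT at -53 and -54. TATAA was matched on the forward strand at -28 in Hist1h1b and on neither strand in the 250 bases of Hist1h1c. The printed run of Hist1h1c does hold tatatata close to its start, which the exact letters TATAA do not match. The search therefore does not show that Hist1h1c lacks a TATA box. Hist1h4i had 3 TATAA matches and no CCAAT, octamer or H1 box in its window. The interval shared by Hist1h2ac and Hist1h2bc held 3 CCAAT matches, an octamer and 2 TATAA matches. A match is a description of letters, and binding was not measured.

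Hist1h2bc was unevenly spread over cells. It had no UMI in 2731 of the 3470 cells, 1 UMI in 398, 2 to 4 in 160 and 5 or more in 181, with up to 41 in a single cell. The 174 cells (5%) with the most held 70.6% of its UMIs. The same share was 55.8% for Hist1h1c and 40.1% for Hist3h2a, which has a similar total, and 71.3% for Hist1h2ap. Cells with 5 or more Hist1h2bc UMIs made up 6.46% and 5.83% of the cells of the mice labelled Helios-deficient and 3.83% and 5.69% of those of the wild-type mice. Their median depth, 7679 UMIs, was close to the 7909 of the other cells. They formed 6.04% of G1 cells, 22.1% of cells with the G2M score alone and 1.75% of those with the S score alone. The cut is a raw count, and the median depths of these classes were 6454.5, 13402 and 9942 UMIs. These shares were therefore not taken at equal depth, and the part of depth in them was not tested. In these 181 cells Hist1h1c stood at 208 CPM against 19.4 CPM in the rest, Hist3h2a at 97.2 against 27.5 CPM and Hist1h4i at 98.3 against 32.1 CPM. Hist1h2ap, at 17.9 against 33.3 CPM, and Hist1h1b, at 10.1 against 17.6 CPM, were lower there, so the genes higher in S were not all on one side. Hist1h1c was found in 13.4% of cells without Hist1h2bc, 15.3% of those with 1 UMI, 33.8% of those with 2 to 4 and 68.0% of those with 5 or more. The cells were not thinned to equal depth for these shares.

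The genes most like 3 of the cluster genes were taken by the correlation of log-scaled counts over cells within each mouse, averaged over the 4 mice, among 9168 genes found in at least 5% of cells. For Hist1h2bc the first was Hist1h1c (mean r = 0.474, from 0.395 to 0.558 over mice), followed by H1f0, a linker histone variant made outside S phase (0.294), B2m (0.292), H3f3b, which encodes the replacement histone H3.3 (0.278), and Ccnb2, a mitotic cyclin (0.276). For Hist1h1c they were Hist1h2bc, H3f3b (0.242), Hist3h2a (0.206), Ccnb2 (0.206) and B2m (0.203). For Hist1h4i, the S-following gene with the most UMIs, they were Birc5 (0.448), Cdca3 (0.429), Ccnb2 (0.422), Cdca8 (0.409) and Nusap1 (0.392), all genes of mitosis. All of the genes named for Hist1h4i were also G2M scoring genes, and so was Ccnb2 where named for Hist1h2bc and Hist1h1c. These correlations are therefore not separate from the phase classes. The cells share 1 library and differ in depth, and these values over 3470 cells are a description.

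Genes that serve histone messages and proteins were counted in the same fits. Of 26 tested genes for transcription and 3 prime processing of histone messages, 14 were higher in S than in G1, 1 lower and 11 not called, beside 26.5% of all genes higher and 25.3% lower. Slbp, which binds the stem-loop, rose by 1.68 on the log2 scale, Ccne1, the cyclin E1 gene, by 3.98, and Eri1, a nuclease that trims histone messages, by 0.92 (edgeR adjusted p of at most 1.76e-13). Casp8ap2, a component of histone locus bodies, rose by 1.03, and Pou2f1 was the one that fell, by 0.42. Of 30 histone chaperone and import genes, 24 were higher and 1 lower: Mcm2 by 2.18, Dnajc9 by 1.76, Nasp by 2.04 and Nap1l1 by 1.12 on the log2 scale. Mcm2 was also one of the S scoring genes, so its rise and its place among the 24 followed in part from the phase call. The medians were 0.33 for the first list and 0.69 for the second, against -0.03 for all genes. In G2M against G1 the counts were 11 higher and 0 lower of 25 tested, and 20 higher and 1 lower of 29, beside 21.5% of all genes higher and 20.8% lower. Set against S, G2M had 4 chaperone genes higher and 16 lower of 30, beside 13.3% and 15.4% of all genes, while no cluster gene was lower.

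Of the 11 replication-independent variants, 8 were higher in S than in G1, 2 lower and 1, Cenpa, not called, beside the same 26.5% and 25.3%. H2afz (H2A.Z) rose by 1.45, H2afx (H2A.X) by 1.26 and H2afj by 0.65 on the log2 scale. H3f3b and H1f0 were the lower genes, with log2 changes of -0.25 (edgeR adjusted p = 1.01e-14) and -1.20 (adjusted p = 0.0229). Both were higher in G2M than in G1 (0.33 and 0.44), where Hist1h2bc was lower. In all, 9 of 10 tested variants were higher in G2M than in G1 and none lower, beside 21.5% and 20.8%, led by Cenpa, the centromeric H3 variant (4.35), H2afx (3.24) and H2afz (2.10). Apart from Mcm2, no gene of these lists was used for scoring, but the phases themselves were called from other replication and mitosis genes.

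Other cell types could enter a sort. Summed over its 10 markers, the B cell list stood at 76.1 and 1011 CPM in the mice labelled Helios-deficient and 4096 and 81.5 CPM in the wild-type mice, with Pax5 at 0, and in G1 cells it reached 8906 CPM in 1 mouse against at most 76.0 CPM in S cells. The 12 macrophage (452 to 568 CPM), 10 T cell (309 to 364 CPM, Cd3e at 0), 11 neutrophil (829 to 1428 CPM) and 11 erythroid markers (1246 to 1494 CPM) varied less among mice. The neutrophil list was at 1428 and 1330 CPM in the mice labelled Helios-deficient and 976 and 829 CPM in the wild-type mice. The T cell list was at 309 and 315 CPM against 364 and 339 CPM. Neither list overlapped between genotypes. The genotype fit over all cells was rerun without cells holding mature cell transcripts (2628 of 3470) and without the 96 cells holding defining markers. No cluster gene was called in either rerun. Neither rule used the neutrophil markers Elane, Mpo and Prtn3, so the part of that list was not fully tested. The genotype fits within a phase were not rerun in this way. The 8 platelet and megakaryocyte markers, at 249 to 426 CPM by mouse, differed by phase: they summed to 199 to 341 CPM in G1, 234 to 409 CPM in S and 460 to 766 CPM in G2M, the last without overlap with G1 or S, and their part in the G2M changes was not tested. Without the 96 cells that held at least 2 UMIs of 7 defining markers of mature cells, a rule chosen after seeing the data, the counts were 7 higher and 7 lower in S and 14 higher and 2 lower in G2M.

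By genotype no cluster gene was called over all cells. All 35 that passed the filter missed the threshold, as did the 53 under DESeq2, beside 0.794% of 11592 genes called; 7 had an unadjusted p under 0.05. The median log2 change of the 35 (labelled Helios-deficient over wild type) was -0.12, against 0.00 for all genes. Hist1h2bc stood at 90.4 and 85.7 CPM in the mice labelled Helios-deficient and 80.6 and 97.4 CPM in the wild-type mice. Hist1h1c stood at 22.2 and 35.5 CPM against 31.4 and 26.7 CPM. In both genes the range of one genotype lay within or across that of the other. Hist4h4, the H4 gene of the cluster on chromosome 6, had the smallest p: 4.89 and 5.34 CPM against 7.17 and 11.6 CPM, a log2 change of -0.84 ± 0.25 (SE, n = 2 mice per genotype, edgeR adjusted p = 0.152). Its genotypes did not overlap, and without the filter on low counts it was called (edgeR adjusted p = 0.0140). Among the 18 cluster genes with at least 100 UMIs, 7 were lower in both mice labelled Helios-deficient than in both wild-type mice (Hist1h2ac, Hist1h1e, Hist1h1b, Hist4h4, Hist1h1d, Hist2h2ac and Hist1h1a, of which 4 are linker histone genes) and Hist1h2ap was higher, beside 21.5% and 20% of 10246 genes of that abundance. Hist1h1e stood at 16.2 and 17.0 CPM against 21.9 and 19.8 CPM, and Hist1h1d at 4.19 and 6.77 CPM against 9.40 and 7.41 CPM. Hist1h2ai differed by 1.20 and Hist1h1e by -0.33 on the log2 scale (edgeR adjusted p = 0.353 and 0.365). The phase shares moved with genotype: of the cells of the mice labelled Helios-deficient 51.5% and 52.9% were in G1, against 59.9% and 57.7% of wild-type cells, and G2M cells 11.5% and 13.3% against 8.51% and 9.30%. With equal numbers of cells of each phase drawn from every mouse, no cluster gene was called either.

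**Figure D4:**
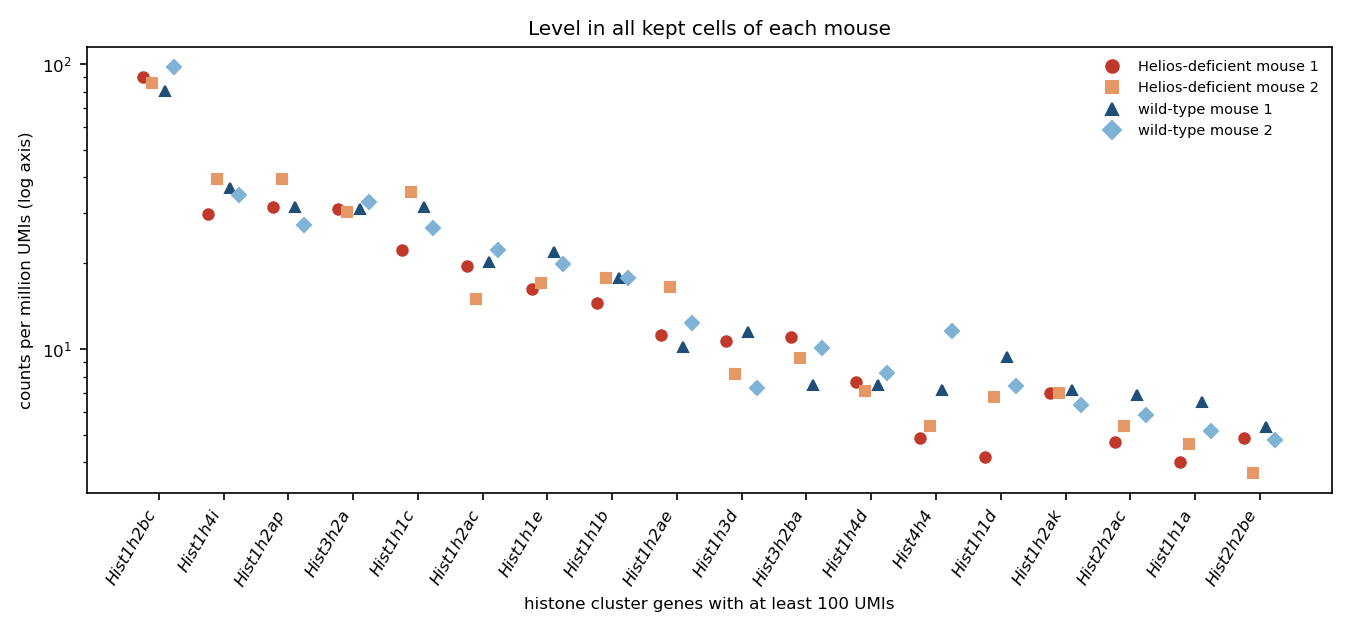
CPM in all kept cells (vertical log axis) of the 18 cluster genes with at least 100 UMIs (horizontal axis, by abundance), with 1 symbol per mouse. Both mice labelled Helios-deficient lie below both wild-type mice for 7 of the 18 genes, among them Hist4h4 and Hist1h1e, and above them for Hist1h2ap.

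Within G1 cells, Hist4h4 was the only one of 15 cluster genes called, beside 1.42% of 10396 genes. It stood at 3.43 and 6.04 CPM in the mice labelled Helios-deficient, against 8.73 and 15.3 CPM in wild-type animals, a log2 change of -1.24 ± 0.33 (SE, edgeR adjusted p = 0.0342). It was not called without mouse 1 labelled Helios-deficient (-0.95, edgeR adjusted p = 0.365; there Hist1h2ac was called in its place, -0.93, adjusted p = 0.0441), without wild-type mouse 2 (-0.82, edgeR adjusted p = 0.723) or when thinned cells set the phases (-1.26, adjusted p = 0.0925). Without wild-type mouse 1, the mouse with the highest level of B cell markers, the log2 change was -1.62. Mouse 2 labelled Helios-deficient, the next highest at 1011 CPM of these markers, stayed in that fit.

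Within S cells 0 of 18 cluster genes were called, beside 0.339% of 10334 genes, and 2 had an unadjusted p under 0.05. Hist1h2bc, at 21.4 and 17.3 CPM in the mice labelled Helios-deficient and 25.5 and 27.2 CPM in the wild-type mice, differed by -0.45 ± 0.17 on the log2 scale (SE, edgeR adjusted p = 0.616). The difference between the genotype effects in S and in G1 was also tested, and 0 of 19 passed, beside 0.239% of 10887 genes, with 2 at an unadjusted p under 0.05. For Hist1h2bc it was -0.62 ± 0.18 (SE, edgeR adjusted p = 0.152). Its fall from G1 to S was -3.02 and -3.08 on the log2 scale in the mice labelled Helios-deficient and -2.32 and -2.53 in the wild-type mice. These ranges did not overlap, and the difference did not pass over all genes. With 2 mice per genotype, whose separate rearing is not described, the p-values measure the spread between these mice.

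Surface tags divided the same cells in a way that no histone transcript enters. In each mouse, cells were ranked by UMIs of a tag and the highest and lowest of 3 equal groups compared. CD48 marks progenitors that have left the stem cell state. Its median was 185 to 211 tag UMIs in the high group and 59 to 66 in the low group. Between these groups 8 of 18 cluster genes were higher with high CD48 and 5 lower, beside 19.6% and 17.2% of 9929 genes. Higher were Hist1h2ak (log2 change 2.40 ± 0.30), Hist1h1b (1.93 ± 0.18), Hist1h1a (1.76 ± 0.30), Hist1h2ap (1.69 ± 0.16), Hist1h2ae (1.42 ± 0.21), Hist2h2ac (1.16 ± 0.28), Hist1h4i (1.10 ± 0.12) and Hist1h1e (0.67 ± 0.15). Lower were Hist3h2ba (-1.06 ± 0.21), Hist4h4 (-0.71 ± 0.25), Hist1h1c (-0.66 ± 0.14), Hist3h2a (-0.49 ± 0.12) and Hist1h2bc (-0.38 ± 0.11; SE, edgeR adjusted p of at most 0.0212). The phase of the cells moved with the tag: G1 cells were 22.2% to 37.1% of the high group and 73.0% to 77.7% of the low group. Depth moved with it as well, with median depths of 10285 to 13813 UMIs per cell in the high group and 6230 to 6734 in the low group, and its part in these calls was not tested.

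Within G1 cells alone, ranked anew, Hist1h2bc changed sides. It was at 188, 198, 149 and 187 CPM with high CD48 and 204, 153, 110 and 124 CPM with low CD48, higher in 3 of the 4 mice (log2 change 0.40 ± 0.09, edgeR adjusted p = 0.000173). In all cells it had been at 65.5, 70.2, 71.9 and 78.6 CPM against 129, 107, 90.3 and 79.3 CPM, lower with high CD48 in all 4. Hist1h1c in G1 cells was at 35.2, 54.7, 55.7 and 39.4 CPM with high CD48 against 58.0, 62.0, 30.1 and 38.4 CPM, with no common direction, and was not called. Of 8 cluster genes tested in G1 cells, 1 was higher and 1, Hist4h4, lower (-1.09, edgeR adjusted p = 0.0220), beside 7.91% and 7.24% of 8271 genes.

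**Figure D5:**
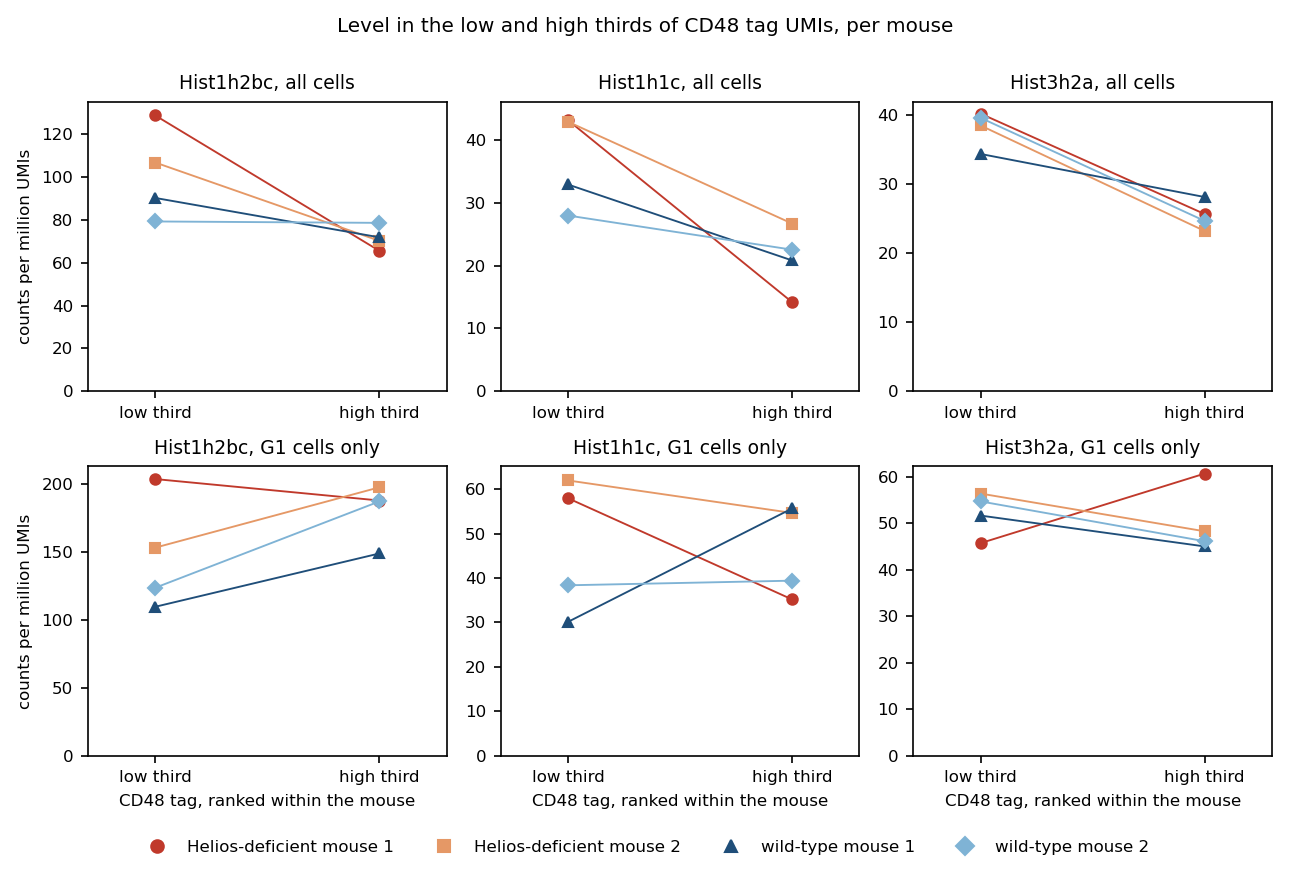
CPM (vertical axes, from 0) of Hist1h2bc, Hist1h1c and Hist3h2a in the low and high groups of CD48 tag UMIs (horizontal axes), 1 line per mouse, in all cells (upper row) and in G1 cells ranked anew (lower row). All lines fall in the upper row, and for Hist1h2bc 3 of 4 rise in the lower row.

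The other tags separated the genes less. CD150 marks stem cells, CD41 stem cells and the megakaryocyte lineage, and CD135 lymphoid-primed progenitors. With high CD150, Hist1h1b (log2 change 0.74 ± 0.16), Hist1h2ap (0.71 ± 0.12) and Hist1h4i (0.40 ± 0.11) were higher and Hist1h2bc lower (-0.32 ± 0.07), of 19 tested and beside 4.54% of 10003 genes higher and 4.26% lower. With high CD41, Hist1h1b (0.57 ± 0.15) and Hist1h2ap (0.48 ± 0.11) were higher and Hist1h2bc lower (-0.28 ± 0.07), of 19 tested and beside 4.02% and 4.11% of 10031 genes. With high CD135, Hist1h2bc alone was called of 18 tested, lower by 0.48 ± 0.08 on the log2 scale, beside 2.3% of 9990 genes. Its levels there were 87.9, 72.9, 54.5 and 73.4 CPM against 106, 85.6, 102 and 105 CPM, lower in each mouse, and the call held among G1 cells (-0.36, edgeR adjusted p = 0.0358). The tag medians were close together (104 to 113 against 60 to 61 for CD150, 45 to 48 against 30 to 31 for CD135, and 41 to 47 against 25 to 26 for CD41). High groups also held deeper cells, though by less than for CD48, with medians of 7652 to 9603 UMIs against 7242 to 8139 for CD150, 7903 to 9961 against 6913 to 8031 for CD135 and 7884 to 10358 against 7298 to 7881 for CD41. Ranking by the tag relative to the cell's mean over the 4 tags turned the direction of the CD150 and CD41 calls and of Hist1h2bc by CD135 (0.069, edgeR adjusted p = 0.908), so the raw rankings by these tags do not fix a direction.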

How the data were processed

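Messenger RNA of LSK cells from 4 mice was read in 1 droplet run. The authors deposited raw UMI counts per gene and barcode, hashtag calls for each barcode, and a list of kept barcodes. Build mm10, together with Cell Ranger and Seurat 3.0.0, is listed in the submitters' processing notes; the header of the matrix gives version 3.0.2. Of 4108 barcodes, 3842 had a single-mouse call, 231 were doublets between mice and 35 had no hashtag. The authors kept 3470, and their filter is not given in the sources used here. No further doublet caller was run. Median depth was 7897.5 UMIs per kept cell.

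The mouse was the replicate. Counts were summed per mouse, or per mouse and phase or tag group with mouse as block, and tested with edgeR 4.0.16 in R 4.3.3 (quasi-likelihood, robust, TMM, default filter on low counts), with Benjamini-Hochberg adjustment over all genes tested and a threshold of 0.05; DESeq2 1.42.0 was an alternative. SEs are the fold change divided by the root of F. Phases came from scanpy 1.11.5. CPM is UMIs over all UMIs of the same cells. On simulated counts for genotype (11592 genes), 82 of 100 genes with a 1.5-fold change and 99 of 100 with a 2-fold change were recovered, with 5 false calls. For S against G1 (10404 genes) these were 92 and 100, with 7 false calls. In both simulations the changed genes were drawn only from those above a set mean CPM. Most cluster genes lay below it, so recovery at their level was not measured.

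Named were Hist1h2bc, Hist1h1c, the 10 most abundant members, up to 6 called members with the largest changes per direction (the 3 smallest p where none was called) and up to 4 genes of each list by p. Members and lists were chosen with earlier results of these data known. Genes mentioned for a single feature, such as Hist1h2af, Hist1h3a and the variants H3f3b and H1f0, were chosen after their values were seen.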

Additional observations from a re-analysis of the deposited data

Results flagged for a closer look

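In 2 genes a single mouse stood apart from the other 3. The log2 ratio of Hist1h1b between S and G1 was 2.20 in mouse 1 labelled Helios-deficient and 3.51 to 3.74 in the other 3. The log2 ratio of Hist1h1a between G2M and G1 was 2.00 in the same mouse and 3.59 to 3.89 in the others. In both cases the gap exceeded Dixon's 95% critical value for 4 values. Of 24 such ratios examined, chance flags about 1 in 20. Hist1h1b had 21 UMIs in all G1 cells, so the ratios rest on few molecules.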

How the results depend on the processing

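Counts of called cluster genes were recomputed under each alternative. For S against G1 (7 higher, 7 lower), they became 15 higher without a filter, 1 higher and 4 lower of 6 tested with the CD48 group as covariate, and 7 to 8 higher and 5 to 7 lower with 1 mouse left out. For G2M against G1 (13 and 2), DESeq2 gave 28 and 1, no filter gave 34 higher, thinned phases gave 1 lower, the CD48 covariate gave 7 and 1 of 11 tested, and leaving out a mouse gave 13 to 17 higher and 2 lower. G2M against S gave 38 higher without a filter against 21, and 20 to 24 without a mouse. The covariate splits the counts into smaller sums, so fewer genes pass the filter.

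For genotype (0 called), no filter called 1 (Hist4h4), and leaving out a mouse called 0 to 2: Hist1h2ap (0.42) without mouse 1 labelled Helios-deficient, Hist1h1d (-1.01) and Hist4h4 (-0.92) without mouse 2, and Hist4h4 (-1.17) without wild-type mouse 1. Within G1 (1 called), thinned phases called 0 and leaving out a mouse 0 to 1. Neither the S fit nor the difference between S and G1 gained a call in any alternative.

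For CD48 (8 and 5), G1 cells alone gave 1 and 1, and leaving out a mouse 8 to 11 higher and 4 to 5 lower. For CD150 (4 called) the values were 1 in G1 cells, 8 with centred tags, 2 with no replicate block and 3 to 4 without a mouse. For CD135 (1 called) they were 12 with centred tags, 0 with no replicate block, and 1 to 4 without a mouse (4 without wild-type mouse 2). For CD41 (3 called) they were 0 in G1 cells, 9 with centred tags, 1 with no replicate block and 3 to 4 without a mouse. The cause was not tested.

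Signs turned as follows (log2 changes). With centred tags, CD150 gave -1.07 for Hist1h1b, -0.69 for Hist1h2ap, -0.52 for Hist1h4i, 0.30 for Hist1h2bc and 0.44 for Hist1h1c, CD41 gave -0.79 for Hist1h1b, -0.74 for Hist1h2ap, 0.21 for Hist1h2bc and 0.18 for Hist1h1c, and CD135 gave 0.069 for Hist1h2bc and 0.15 for Hist1h1c. In G1 cells, CD48 gave 0.40 for Hist1h2bc and 0.18 for Hist1h1c, and CD150 gave 0.036 for Hist1h1c. All other turns concern values that no fit called. For genotype, Hist1h2bc was 0.085 with equal phases, 0.25 without mature cell transcripts, 0.0059 without defining mature markers, 0.070 without cells above 20000 UMIs and -0.15 to 0.13 with a mouse left out. Hist1h1c was -0.00035 over all single-mouse barcodes, -0.081 without mature cell transcripts, -0.00075 without defining markers and -0.39 to 0.28 with a mouse left out. Hist1h4i was 0.29 without mature cell transcripts and -0.27 to 0.14 with a mouse left out, and Hist1h3d -0.30 to 0.34. Hist1h1e in S was -0.065 with the CD48 covariate and -0.036 to 0.23 with a mouse left out. Hist1h1c in G2M was 0.021 with thinned phases and 0.011 with the covariate. Its genotype value within G1 was -0.030 with thinned phases and -0.13 to 0.33 with a mouse left out, and with thinned phases it was 0.082 within S and 0.14 for the difference. Of 673 recomputed values of named genes, 600 kept direction and side of the threshold, 28 lost and 7 gained a call, and 38 changed sign.

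Low counts limit most of the 53 genes, since 35 had fewer than 100 UMIs. The rule planned for mature cell transcripts removed 2628 of 3470 cells, because several of its genes are common in these cells, and the narrower rule was added.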
